A study of Mus musculus with 6 samples.

Results

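The T cells of the lower abdominal muscle (LAM) were few, at 173 of 55850 kept cells (0.310%), or of 63647 barcodes in all. A cell was kept when it had at least 500 UMIs (unique molecular identifiers, each standing for 1 captured mRNA molecule) and at most 10% of its UMIs in mitochondrial genes. A kept cell was counted as a T cell when at least 2 of *Cd3e*, *Cd3g* and *Trbc2* had a UMI and when *Csf1r*, a macrophage receptor, *Pdgfra*, a fibroblast receptor, and *Pecam1*, an endothelial adhesion molecule, all had none. The cells were thus chosen by the measured UMIs of those 6 genes, whose levels inside the gate are given only as a description. The cells came from 3 wild-type (WT) and 3 *Aromhum* male mice of the FVB/N strain, all 9-10 weeks old, with 1 droplet library of 3' mRNA ends per mouse. *Aromhum* mice carry the human aromatase gene *CYP19A1*, which makes estrogens from androgens under its own human promoters, and their labels give scrotal hernia. The WT mice were littermates without the transgene, and per the study's methods 1 mouse of each genotype was processed on each of 3 dates. All muscle was digested with collagenase and dispase and passed through fine filters that hold back multinucleated fibers, and no sort for leukocytes was made. The question for these cells was whether their number, their kinds and their mRNAs differed between the genotypes.

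T cells recognize antigen through a receptor made of 2 variable chains held in a complex with the CD3 proteins, which carry the signal into the cell. Most T cells in lymphoid organs use the alpha and beta chains, whereas gamma-delta T cells use another pair and live mainly in barrier tissues, fat and muscle, where some make interleukin-17. In muscle, regulatory and other resident T cells are known to gather after injury and to act on repair.

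The genes of the receptor that the counts turn on lie on 3 chromosomes in GENCODE vM21 (GRCm38, the mm10 build to which the reads were aligned). *Cd3g* (chr9:44969572-44980431, minus strand), *Cd3d* (chr9:44981786-44987339, plus strand) and *Cd3e* (chr9:44998740-45009627, minus strand) encode neighboring CD3 chains. The beta-chain constant genes *Trbc1* (chr6:41538218-41539881, plus strand) and *Trbc2* (chr6:41546730-41548352, plus strand) are near-identical copies, so how reads were split between them is uncertain. The delta-chain constant gene *Trdc* (chr14:54142851-54148868, plus strand) lies beside the alpha-chain constant gene *Trac* (chr14:54220521-54224206, plus strand). UMIs were counted over whole genes, and sequence variants of the receptor were not read.

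The T cells were shallow. Their median was 2939 UMIs, against 7278 in the other kept cells, with a lowest of 869 and a highest of 39540. Summed over a mouse they held from 56353 to 227317 UMIs, of 64958237 to 111826460 UMIs in a whole library. In 5 of the 6 libraries nearly every gene of the deposited table was either seen in at least 18 barcodes or listed at 0 for the whole library, with 1 to 5 exceptions a library, whereas WT replicate 2 had 114 genes seen in 1 to 17 barcodes. In all, 2362 of 16494 genes (14.3%) were listed at 0 in at least 1 library. For T cells this touched *Cd3d*, *Trbc1*, *Cxcr6* and *Zap70* in WT replicate 3, *Trdc* in WT replicate 3 and *Aromhum* replicate 3, *Trac* in *Aromhum* replicate 3, and the gamma chain gene *Tcrg-C1* everywhere except in *Aromhum* replicate 2. Such a 0 was not read as absence of the mRNA. *Cd8a*, *Cd8b1* and *Foxp3* are not analysed here, so cytotoxic CD8 cells and regulatory T cells could not be named by their defining genes. No T cell shared its barcode sequence with a cell of another library, although 471 barcode sequences occurred in more than 1 library.

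The gate held mostly, but not solely, cells that carried further T cell mRNAs. Of the 3 rule genes, *Cd3g* had a UMI in 156 of the 173 cells, *Trbc2* in 145 and *Cd3e* in 112, and 67 cells had all 3. *Il7r*, the interleukin-7 receptor on which resting T cells depend, had a UMI in 134 cells, and *Cd52*, a small surface glycoprotein of lymphocytes, in 138. In CPM (counts per 1000000, the UMIs of a gene per 1000000 UMIs of the same cells), *Il7r* stood at 1469, 596 and 940 in the T cells of WT replicates 1 to 3 and at 493, 984 and 876 in those of *Aromhum* replicates 1 to 3, against a mean of 16.1 ± 4.78 (SD, n = 6) in the other kept cells. *Cd52* stood at 1149 ± 719 CPM (SD, n = 6) in T cells against 44.4 ± 18 in the others. Every mouse was far above the other cells for both genes. *Cd3d* was seen in 98 cells, *Trbc1* in 77, the lymphotoxin gene *Ltb* in 109 and *Icos*, a costimulatory receptor of activated T cells, in 105. *Ptprc*, the leukocyte antigen CD45, had a UMI in 109 of the 173 cells.

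The cells that passed on a pair of rule genes differed by pair. Of the 61 cells with *Cd3g* and *Trbc2* but no *Cd3e*, 43 (70.5%) had a *Ptprc* UMI, close to the 48 of 67 (71.6%) among cells with all 3 genes. Of the 17 cells with *Cd3e* and *Trbc2* but no *Cd3g*, 5 (29.4%) had one, and of the 28 with *Cd3e* and *Cd3g*, 13 (46.4%) did. Just outside the limits lay 543 cells with a single rule gene, 315 of them with *Cd3e*, 197 with *Trbc2* and 31 with *Cd3g*, and 27 cells over the mitochondrial limit, of which the nearest had 10.05%, against 9.87% in the nearest T cell. No barcode with the rule genes fell below 500 UMIs.

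Among the 173 cells, 23 had a UMI of *Msln*, *Upk3b* or *Wt1*, genes that mark the mesothelium, the cell sheet that lines the abdominal cavity. They were 0, 2 and 2 cells in WT replicates 1 to 3 and 10, 5 and 4 in *Aromhum* replicates 1 to 3. These cells were deep, with a median of 10594 UMIs against 2782 in the other 150, so they held 37.1% of all T cell UMIs, from 0% in WT replicate 1 to 50.9% in *Aromhum* replicate 1. Only 6 of them had a *Ptprc* UMI, against 103 of the other 150. These markers go against the T cell label, so the shares and the tests over genes below were also made without the 23 cells. That removal was chosen after seeing the data. Of the 17 cells that passed on *Cd3e* and *Trbc2* alone, 11 were among the 23.

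The rule genes were also present in cells of other classes, and for some genes unequally by genotype. Of 2544 kept cells with both *Msln* and *Upk3b*, 12.2% had a *Cd3e* UMI and 10.8% a *Trbc2* UMI, but 0.786% had *Cd3g* and 0.0786% had *Cd3d*. Of the 2544 cells, 2526 lay outside the T cell gate, so these shares include some gate cells chosen by the same rule genes. In these mesothelial-marker cells *Trbc2* was seen in 2.19%, 2.61% and 3.13% of cells of WT replicates 1 to 3 and in 19.5%, 9.29% and 9.15% of those of *Aromhum* replicates 1 to 3 (exact permutation test, 2-sided p = 0.1, the smallest that 3 mice against 3 allow). In 18049 cells with a *Pdgfra* UMI, *Cd3e* was seen in 1.79%, 0.660% and 1.86% of cells of WT replicates 1 to 3 and in 6.08%, 5.45% and 2.11% of those of *Aromhum* replicates 1 to 3 (exact p = 0.1). *Trbc2* in *Pdgfra* cells was seen in 0.0793%, 0.0508% and 0% of cells of WT replicates 1 to 3. It was seen in 1.24%, 1.31% and 0.715% of those of *Aromhum* replicates 1 to 3 (exact permutation test, p = 0.1). In each of these comparisons every *Aromhum* mouse was above every WT mouse. *Cd3e* in the mesothelial-marker cells overlapped, at 5.11%, 13.7% and 3.13% in WT mice and 13.2%, 9.29% and 17.5% in *Aromhum* mice (exact p = 0.3), and so did *Cd3g* there, at a mean of 0.957% and 0.813% (exact p = 0.8). *Cd3g* in *Pdgfra* cells ran from 0.0810% to 0.198% in WT mice and from 0.0715% to 0.387% in *Aromhum* mice (exact p = 0.4), and the ranges overlapped. Median depth was 11487 UMIs in the mesothelial-marker cells and 11186 in the *Pdgfra* cells, well above that of T cells. Over all kept cells outside the gate, median depth was 6074, 7053.5 and 6790.5 UMIs in WT replicates 1 to 3. It was 7639, 7162.5 and 9536 in *Aromhum* replicates 1 to 3, above every WT mouse. In the T cells the order was unlike, at medians of 3604, 3585 and 3507 UMIs in WT mice and 2643, 1969.5 and 4857.5 in *Aromhum* mice. *Aromhum* replicates 1 and 2 were thus below every WT mouse, and replicate 3 was above. Shares of cells with a UMI, here and below, thus compare mice of unlike depth, and the part of depth was not tested.

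**Figure D1:**
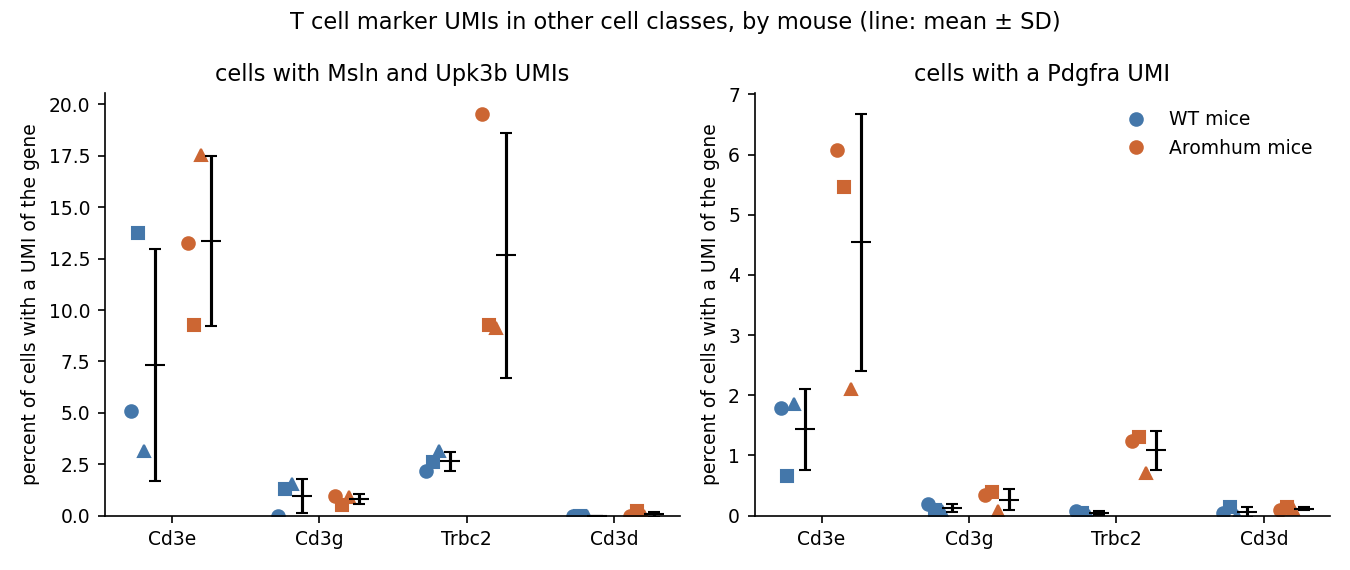
Percent of cells with a UMI of each T cell gene (vertical axis) in kept cells with *Msln* and *Upk3b* UMIs (left, gate cells included) and in kept cells with a *Pdgfra* UMI (right), 1 point per mouse, with the mean ± SD of 3 mice per genotype. *Trbc2* reached 19.5% of the mesothelial-marker cells of *Aromhum* replicate 1, whereas *Cd3g* and *Cd3d* stayed near 0 in both classes.

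The share of T cells among kept cells overlapped between the genotypes. The share was 0.243%, 0.315% and 0.158% in WT replicates 1 to 3, from 22, 24 and 11 cells, and 0.375%, 0.455% and 0.194% in *Aromhum* replicates 1 to 3, from 42, 58 and 16 cells. Exact Clopper-Pearson 95% intervals, which cover counting error only, ran from 0.0787% to 0.282% for the lowest mouse and from 0.345% to 0.587% for the highest. The means were 0.239% ± 0.0787 and 0.341% ± 0.134 (SD, n = 3), and the difference was within the spread between mice (0.103 percentage points, exact permutation test, 2-sided p = 0.3). How many rule genes were asked for set the size of the difference. With all 3 genes the means were 0.117% in both genotypes (exact p = 1), whereas with at least 1 gene they were 0.578% ± 0.12 in WT and 1.74% ± 0.390 in *Aromhum* mice, and no *Aromhum* mouse overlapped a WT mouse (exact p = 0.1). Without the limit on *Csf1r*, *Pdgfra* and *Pecam1* the means were 0.298% and 0.603% (exact p = 0.1). With every cell thinned to 1000 UMIs the rule gave means of 0.143% and 0.228% (exact permutation test, p = 0.3). The count with at least 1 gene was not thinned. Without the 23 mesothelial-marker cells the difference was 0.110 percentage points (exact p = 0.4). The share was higher in the *Aromhum* mouse of each same-numbered pair, for which the exact sign-flip permutation test gave p = 0.25, the smallest that 3 pairs allow. T cells with a *Ptprc* UMI were a smaller part of the gate in every *Aromhum* mouse than in any WT mouse. Their share of kept cells was not compared.

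Within leukocytes the T cell share was lower in every *Aromhum* mouse than in every WT mouse. Leukocytes were counted as kept cells with a *Ptprc* UMI or in the T cell gate, and T cells were 7.67%, 9.30% and 9.24% of them in WT replicates 1 to 3 and 3.15%, 6.09% and 6.50% in *Aromhum* replicates 1 to 3. The means were 8.74% ± 0.929 and 5.25% ± 1.83 (SD, n = 3), a difference of -3.49 percentage points (exact permutation test, 2-sided p = 0.1, the smallest possible). The difference was -3.52 without the mesothelial-marker cells, -2.72 when all 3 rule genes were required and -3.92 when every counted cell had to have a *Ptprc* UMI. Outside the gate, cells with a *Ptprc* UMI numbered 265, 234 and 108 in WT mice and 1290, 894 and 230 in *Aromhum* mice, and C1q macrophages, resident macrophages named for complement genes, numbered 132, 44 and 38 against 1178, 521 and 40. These counts carry no test. A *Ptprc* UMI was also seen in 0.833%, 0.508% and 0.405% of *Pdgfra* cells of WT replicates 1 to 3 and in 2.42%, 1.93% and 0.965% of those of *Aromhum* replicates 1 to 3 (exact permutation test, p = 0.1), and its part in the leukocyte count was not tested.

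**Figure D2:**
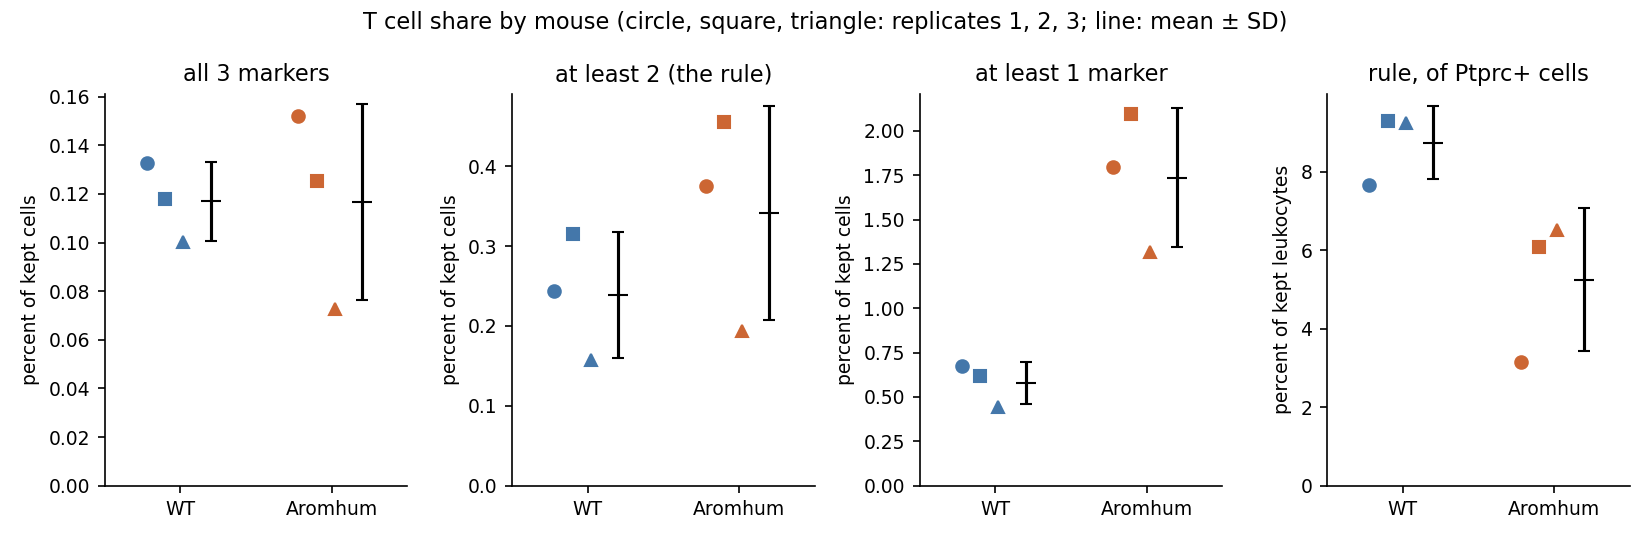
T cell share by mouse as a percent of kept cells when all 3, at least 2 or at least 1 of *Cd3e*, *Cd3g* and *Trbc2* had a UMI (first 3 panels) and as a percent of leukocytes by the rule (last panel), with the mean ± SD of 3 mice per genotype. The genotypes overlap with all 3 and at least 2 genes and are apart with at least 1 gene, and T cells were 3.15% to 6.50% of leukocytes in *Aromhum* mice against 7.67% to 9.30% in WT mice.

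*Trdc*, which encodes the delta chain, and *Trac*, which encodes the alpha chain, were seldom seen in the same T cell. In the 4 libraries that list *Trdc*, 60 of 146 T cells had *Trdc*, 37 had *Trac*, 3 had both and 52 had neither, and none of the 10 cells with *Cd4*, the coreceptor of helper T cells, had *Trdc*. In *Pecam1* endothelial cells, which should lack these genes, *Trdc* had a UMI in 0.0776% and *Trac* in 0.176% of 14176 cells at a median of 6199.5 UMIs, above the median of T cells. These endothelial cells had *Cd3e*, *Cd3g* and *Trbc2* at 0 by definition and came from all 6 libraries. They include 3246 cells of WT replicate 3 and 2090 of *Aromhum* replicate 3, where *Trdc* is listed at 0, which lowers its share. *Trac* is listed at 0 in *Aromhum* replicate 3 too. In *Aromhum* replicate 2, the library that lists the other gamma-delta genes, *Tcrg-C1* had a UMI in 20 of 58 T cells, 15 of them with *Trdc*, and *Cd163l1*, a scavenger receptor of gamma-delta cells also called SCART1, in 20, of which 18 had *Trdc*.

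Without the mesothelial-marker cells, *Trdc* was seen in 16 of 22 T cells of WT replicate 1, 5 of 22 of WT replicate 2, 14 of 32 of *Aromhum* replicate 1 and 22 of 53 of *Aromhum* replicate 2. The 2 WT mice thus lay on either side of the 2 *Aromhum* mice, at 72.7% and 22.7% against 43.8% and 41.5%. A wider count took any listed gamma or delta gene, but genes such as *Tcrg-C1* are listed in *Aromhum* replicate 2 only. The measure is thus unlike there, where 24 of 58 T cells had *Trdc* itself. By the wider count of any listed gamma or delta gene, the gamma-delta share of all T cells was 72.7% and 20.8% in WT replicates 1 and 2, and 35.7% and 50.0% in *Aromhum* replicates 1 and 2. It was listed at 0 in the third mouse of each genotype, where *Trdc* itself is listed at 0, so the test over 6 mice (difference -2.62 percentage points, exact permutation test, p = 1, adjusted p = 1 over 3 shares) rests on those 2 listed zeros. Without WT replicate 1 the difference was 18.2 percentage points, and without *Aromhum* replicate 3 it was 11.7.

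Cells with and without *Trdc* were then set side by side. The values compare 57 cells with and 72 cells without a *Trdc* UMI, pooled over the 4 libraries and without mesothelial-marker cells, as a description and with no test, since cells are not replicates. The libraries enter the sides unequally: WT replicate 1 gave 16 and WT replicate 2 gave 5 of the 57 cells with *Trdc*, so differences between these mice are part of the pooled values. Median depths were 3801 and 3065 UMIs for cells with and without *Trdc* in WT replicate 1, 2632.5 and 2409.5 in *Aromhum* replicate 1, and 1871 and 1901 in *Aromhum* replicate 2. In WT replicate 2 the *Trdc* cells were deeper, at 5030 against 3179.

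Of the 9 genes of residence and activation compared, 6 had a UMI in a higher share of the cells with *Trdc* and 3 in a lower share. *Cxcr6*, a chemokine receptor of resident lymphocytes, was seen in 86.0% of *Trdc* cells and 50.0% of the others, and *Rora*, a transcription factor of type 17 and innate-like lymphocytes, in 93.0% and 65.3%. *Cd69*, an early activation and retention marker, was seen in 26.3% and 26.4%, *Rgs2*, which dampens G protein signaling, in 43.9% and 50.0%, and *Nr4a1*, a factor induced by receptor signaling, in 7.0% and 22.2%. Of the 11 genes of the cytokine receptor list compared, 7 were seen in a higher share of the cells with *Trdc* and 4 in a lower share. That list also holds the lymphotoxin gene *Ltb*, which is no receptor gene and is among the 7, at 86.0% and 56.9%. Of the 5 chemokine receptor genes, 4 were higher and 1 was lower. *Il2rb*, a chain of the receptor for interleukins 2 and 15, was seen in 84.2% and 51.4%, and *Ccr2*, a receptor for monocyte chemokines, in 68.4% and 36.1%. *Il2rg*, another chain of that interleukin receptor, was seen in 36.8% and 43.1%. *Pdcd1*, the inhibitory receptor PD-1, was seen in 80.8% and 40.0% in the 3 libraries that list it. *Il7r* was seen in 98.2% and 73.6%, and *Nr3c1*, the glucocorticoid receptor, in 84.2% and 55.6%. *Cd3g* was present in 100% of the *Trdc* cells and 91.7% of the others, but it is a rule gene, so the gate partly sets both shares.

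All 6 naive and recirculating genes compared had a UMI in a lower share of the cells with *Trdc*, of which *Lef1* could be compared in 2 libraries only, and the 16 receptor and signaling genes were split, with 9 in a higher and 7 in a lower share. *Trac* was seen in 45.8% of the cells without *Trdc* and 3.5% of the *Trdc* cells, and *Cd28*, the main costimulatory receptor, in 51.4% and 5.3%. *Lck*, the kinase that starts receptor signaling, was seen in 26.4% and 3.5%, and *Cd2*, an adhesion receptor, in 40.3% and 14.0%. In the other direction, *Zap70*, the kinase that binds the signaling chains, was seen in 22.2% of the cells without and 43.9% of the cells with *Trdc*, *Cd247*, the CD3 zeta chain, in 15.3% and 36.8%, and *Trbc1* in 47.2% and 57.9%. *Tnfrsf4*, the costimulatory receptor OX40, was seen in 33.3% and in none of the *Trdc* cells, and *Ccr7*, the receptor that leads T cells to lymph nodes, in 20.8% and 3.5%. *Satb1*, a chromatin organizer of T cells, was seen in 38.9% and 14.0%. *Trbc2* was seen in 90.3% of the cells without and 75.4% of the cells with *Trdc*, but it is a rule gene, so the gate partly sets both shares.

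**Figure D3:**
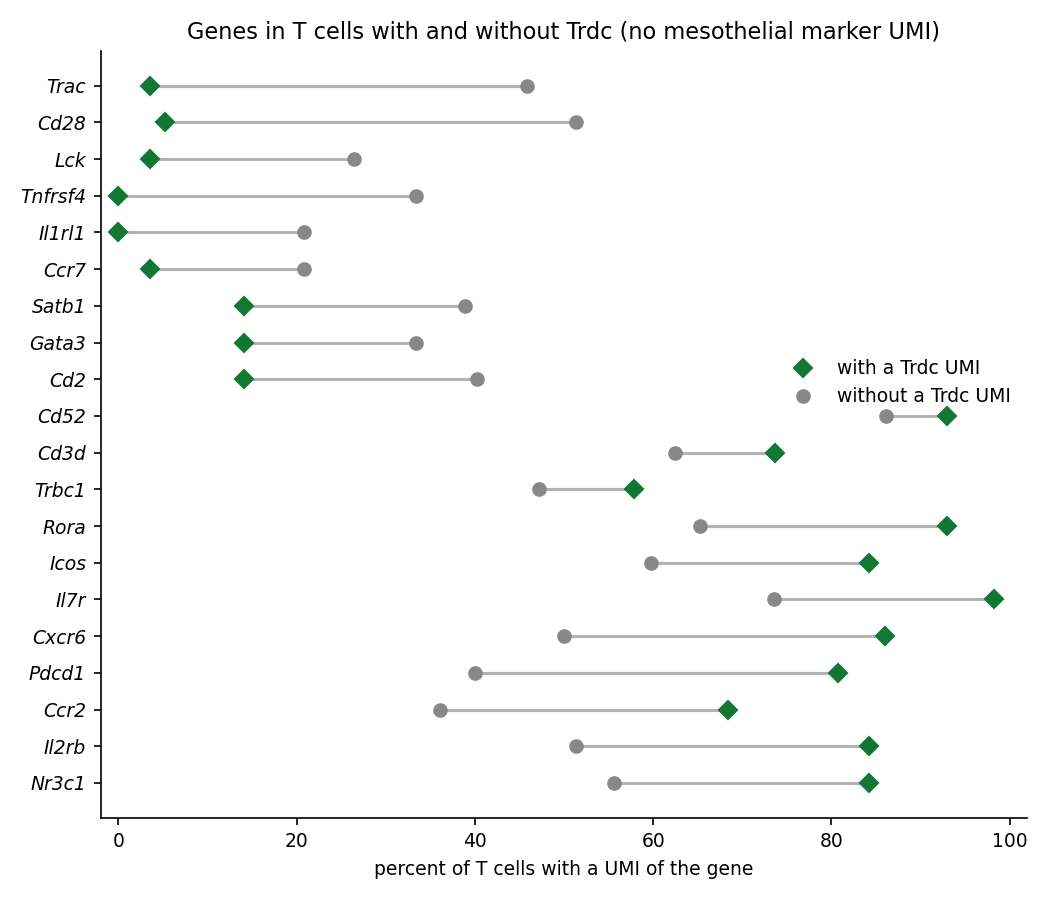
Percent of T cells with a UMI of each gene (horizontal axis) for the 57 cells with a *Trdc* UMI (diamonds) and the 72 cells without one (circles), in the 4 libraries that list *Trdc* and without mesothelial-marker cells. *Trac*, *Cd28* and *Tnfrsf4* lie to the right in cells without *Trdc*, and *Cxcr6*, *Pdcd1*, *Ccr2* and *Il2rb* in cells with it.

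Smaller sets of cells shared genes of other lymphocyte kinds. Of the 150 cells without a mesothelial marker, 13 had both *Gata3*, the transcription factor of type 2 lymphocytes, and *Il1rl1*, the receptor for interleukin-33. Of the 11 in libraries that list *Trdc* and *Trac*, none had *Trdc* and 7 had *Trac*. Of all 13, 12 had *Tnfrsf18*, a receptor abundant on regulatory and activated T cells, 9 had *Tnfrsf4* and 8 had *Calca*, which encodes the peptide CGRP. All 13 had *Ptprc*. They also all had *Cd3g* and *Trbc2*, and 3 had *Cd3e*, against 92 of the 150 cells. These last 3 genes are rule genes, and a cell without *Cd3e* passed only with both others, so the gate partly sets these counts. *Gata3* and *Il1rl1* were listed as genes of type 2 T cells and type 2 innate lymphoid cells alike. Which of these the 13 cells were was not tested. Singly, *Gata3* had a UMI in 20.8% of T cells and 3.24% of *Pecam1* endothelial cells, and *Il1rl1* in 11.0% and 0.748%, but *Il1rl1* was also seen in 18.6% of the deeper *Pdgfra* cells. *Lef1* or *Ccr7*, genes of naive and recirculating T cells, were seen in 31 of the 150 cells, of which 24 had *Satb1* and 9 had *Cxcr6*. These were 0, 14 and 4 cells in WT replicates 1 to 3 and 4, 7 and 2 cells in *Aromhum* replicates 1 to 3, but *Lef1* is listed in WT replicates 2 and 3 and *Aromhum* replicate 2 only, so the other mice could be counted by *Ccr7* alone and the counts are not compared between mice. *Mki67* or *Top2a*, genes of dividing cells, were seen in 8 cells, at a median of 6313.5 UMIs.

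Few T cells had a UMI of *Cd4* or of cytotoxic genes, and at this depth a missing UMI does not limit the number of helper or cytotoxic cells. Cells with a *Cd4* UMI were 2 of 22, 1 of 24 and 4 of 11 T cells in WT replicates 1 to 3 and 6 of 42, 1 of 58 and 0 of 16 in *Aromhum* replicates 1 to 3, where 0 of 16 allows a share of cells with a UMI of up to 20.6% (exact 95% interval). The mean shares of 16.5% ± 17.3 and 5.34% ± 7.80 (SD, n = 3) overlapped (exact permutation test, p = 0.5, adjusted p = 0.75 over 3 shares), and the difference of -11.2 percentage points was -1.29 without WT replicate 3 and -9.82 without the mesothelial-marker cells. With each cell thinned to 1000 UMIs the shares were 9.09%, 4.17% and 9.09% in WT mice and 2.44%, 1.72% and 0% in *Aromhum* mice, from at most 2 cells a mouse, and did not overlap (difference -6.06 percentage points, exact permutation test, unadjusted p = 0.1). *Cd4* had a UMI in 0.60% of *Pecam1* endothelial cells. Cytotoxic cells, with at least 2 of *Nkg7*, *Ccl5* and *Ifng*, were 6 cells in *Aromhum* replicate 1 and 4 in *Aromhum* replicate 2 and none in the other mice (mean shares 0% and 7.06% ± 7.14, exact permutation test, p = 0.4, adjusted p = 0.75), a difference of 7.06 percentage points, or 7.72 without the mesothelial-marker cells. *Nkg7*, a granule protein of killer cells, is listed at 0 in the other 4 libraries, so the set could be counted there by *Ccl5* and *Ifng* alone. The levels gave another order: the whole cytotoxic and natural killer list summed to 427, 145 and 1349 CPM in WT mice and to 915, 1026 and 250 in *Aromhum* mice, and *Ccl5*, a chemokine of cytotoxic cells, stood at 852 CPM in WT replicate 3, in 2 cells.

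T cells had little mRNA of the estrogen receptor. *Esr1* had a UMI in 3 of the 173 T cells (1.73%), against 1.67% of *Pecam1* endothelial cells and 34.7% of *Pdgfra* cells, which were both deeper classes, and *Pgr* and *Greb1*, targets of the estrogen receptor, in 0 and 1 T cell. *CYP19A1* gave 743, 772 and 756 UMIs in the kept cells of *Aromhum* replicates 1 to 3 and 0 in WT mice, as the labels give, and a single T cell, of *Aromhum* replicate 2, had one. *Nr3c1* was seen in 119 T cells, at 691, 434 and 444 CPM in WT mice and 282, 465 and 188 in *Aromhum* mice (log2 fold change -0.74, edgeR adjusted p = 0.609).

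The genotype comparison over the UMIs summed per mouse called 2 of 1722 tested genes higher in *Aromhum* T cells and none lower (edgeR quasi-likelihood test, adjusted p under 0.05), a background of 0.116% of genes called. At an unadjusted p under 0.05 there were 79 genes higher and 69 lower, and DESeq2 called 6 higher and 0 lower. *Serpina3n*, a secreted protease inhibitor of acute inflammation, stood at 0, 8.51 and 17.7 CPM in WT replicates 1 to 3 and at 211, 233 and 195 in *Aromhum* replicates 1 to 3 (log2 fold change 4.59, SE 0.54, edgeR adjusted p = 0.0387). *Slc39a8*, a zinc and manganese importer, stood at 25.1, 25.5 and 17.7 and at 299, 196 and 235 (log2 fold change 3.32, SE 0.37, edgeR adjusted p = 0.0387). For both genes every *Aromhum* mouse was above every WT mouse, but with any 1 of the 6 mice left out neither gene passed the test, at log2 fold changes of 4.06 to 5.18 for *Serpina3n* and 3.21 to 3.50 for *Slc39a8*.

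Most UMIs of both called genes lay in the mesothelial-marker cells. Of the 119 *Serpina3n* UMIs in the gate, 109 (91.6%) were in the 23 cells with a mesothelial marker, and of the 141 *Slc39a8* UMIs, 137 (97.2%). In the other 150 cells *Serpina3n* was at 0 in all WT mice and at 35.8, 48.6 and 0 CPM in *Aromhum* mice, and *Slc39a8* was at 25.1, 0 and 0 and at 17.9, 0 and 0. Neither passed the filter on low counts there, and without the 23 cells 0 of 1181 tested genes (0% called) differed by edgeR, with 33 higher and 32 lower at an unadjusted p under 0.05. In cells with *Msln* and *Upk3b* outside the gate, *Slc39a8* stood at 397, 403 and 339 CPM in WT mice and at 732, 778 and 714 in *Aromhum* mice. With the replicate number as a block edgeR called no gene, at log2 fold changes of 4.6 for *Serpina3n* and 3.29 for *Slc39a8*.

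**Figure D4:**
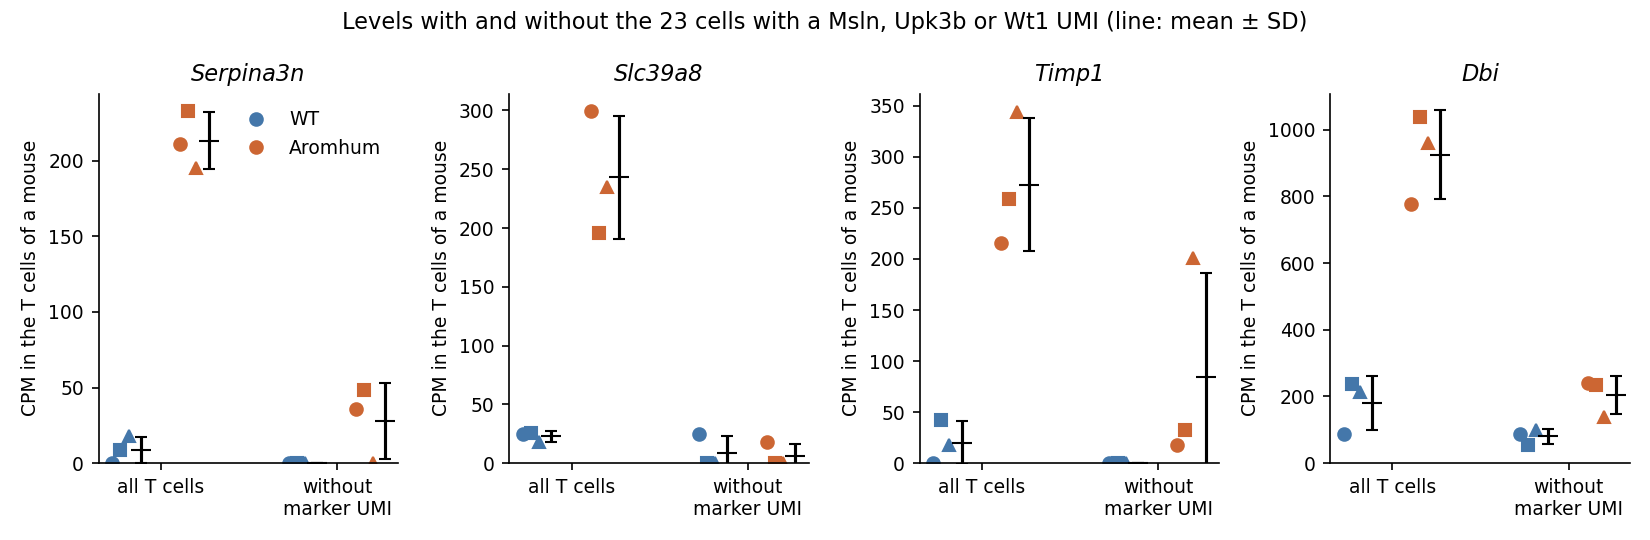
CPM in the T cells of each mouse (vertical axis) for the 2 called genes and for *Timp1* and *Dbi*, in all 173 T cells and in the 150 without a *Msln*, *Upk3b* or *Wt1* UMI, with the mean ± SD of 3 mice per genotype. *Serpina3n* and *Slc39a8* stand near 200 to 300 in *Aromhum* mice over all cells and at 48.6 or less in every mouse without the mesothelial-marker cells.

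The genes of lowest p next to those did not pass the test. *Timp1*, an inhibitor of matrix proteases, had a log2 fold change of 3.51 and *Dbi*, an acyl-CoA binding protein, of 2.34 (both edgeR adjusted p = 0.345), and 87.2% and 85.3% of their UMIs were in the 23 cells. *Pgam1*, an enzyme of glycolysis, stood at 75.3, 59.6 and 35.5 CPM in WT mice and at 224, 159 and 227 in *Aromhum* mice (log2 fold change 1.78, edgeR adjusted p = 0.351). Without the 23 cells it stood at 75.3, 43.3 and 66.0 against 233, 121 and 186, and the groups did not overlap either way. *Pgam1* was also apart in *Pdgfra* cells, at 142, 139 and 129 against 288, 242 and 179. In *Pecam1* endothelial cells it stood at 103, 93.8 and 88.1 against 162, 137 and 118. The groups overlapped for *Pgam1* in C1q macrophages and in cells with *Msln* and *Upk3b* outside the gate. Among genes with less mRNA in *Aromhum* mice the lowest p belonged to *Txk*, *Dusp10*, *Cd28*, *Gata3* and *Picalm*, none of which passed the test. *Txk*, a kinase of T cell receptor signaling, stood at 176, 221 and 160 CPM in WT mice and at 70.4, 68.8 and 46.9 in *Aromhum* mice (log2 fold change -1.58, edgeR adjusted p = 0.345). All 84 *Txk* UMIs were in cells without a mesothelial marker, and there the values were 176, 282 and 297 against 143, 105 and 93.0 (log2 fold change -1.12, edgeR adjusted p = 0.760). *Cd28* stood at 188, 358 and 284 and at 101, 101 and 54.7 (log2 fold change -1.69, edgeR adjusted p = 0.393), and at -1.29 without the 23 cells (adjusted p = 0.760). The WT and *Aromhum* mice did not overlap for either gene with or without the 23 cells. *Pgam1*, *Txk*, *Cd28* and *Dusp10* were picked by lowest p among 1722 genes. The share of all tested genes whose groups do not overlap was not counted. The cells left without the 23 are part of the same gate, so their values are not independent of those over all T cells.

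*Gata3* stood at 352, 179 and 160 CPM in WT mice and at 61.6, 37.0 and 86.0 in *Aromhum* mice (log2 fold change -1.91, edgeR adjusted p = 0.394). Without the 23 cells WT replicate 3 was at 33.0 and the groups overlapped. *Dusp10*, a phosphatase that restrains JNK and p38 signaling, had a log2 fold change of -2.05 (edgeR adjusted p = 0.393), and *Picalm*, a clathrin assembly protein, of -1.19 (edgeR adjusted p = 0.405). Without the 23 cells the mice stayed apart for *Dusp10*, at 113, 271 and 330 CPM in WT mice and 62.7, 72.9 and 46.5 in *Aromhum* mice, and overlapped for *Picalm*. Both genes were also seen elsewhere, *Dusp10* in 41.8% and *Picalm* in 65.6% of *Pdgfra* cells. Without the 23 cells the lowest p was that of *Id3*, an inhibitor of transcription factors that many cell types express, at 25.1, 43.3 and 99.1 CPM in WT mice and 484, 316 and 232 in *Aromhum* mice (log2 fold change 2.85, SE 0.49, edgeR adjusted p = 0.159). Its UMIs came from 17 T cells, with 54 UMIs in 3 cells of *Aromhum* replicate 1, and it was seen in 90.6% of *Pdgfra* cells and 94.3% of *Pecam1* endothelial cells. Over all 173 cells the *Id3* levels overlapped, with WT replicate 3 at 1189.

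None of the gene lists for T cell kinds and functions held a called gene. With 2 of 1722 tested genes (0.116%) called in all, the lack of a call does not set the lists apart from other genes. Of the 22 genes of the receptor complex and its signaling, 13 were tested, 3 had a positive log2 fold change and the median was -0.50, or -0.16 without the mesothelial-marker cells, against a median of -0.01 and 847 positive values over all 1722 genes. Of the 12 genes of residence and activation, 9 were tested at a median of -0.50 (-0.08 without the 23 cells). The 9 tested genes of the cytokine receptor list, *Ltb* among them, had a median of -0.18 (0.10), the 5 regulatory T cell genes -0.24 (0.16) and the 5 MHC class I genes -0.34 (-0.10). The lists of inhibitory receptors, chemokine receptors, cytotoxic, naive, type 2, gamma-delta, CD4 and CD8, steroid receptor and proliferation genes had 1 to 3 tested members each, and the 4 tested interferon-stimulated genes had a median of 0.43 (0.23).

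Genes of other cell types were present in the T cells and were uneven between mice. The 8 fibroblast markers summed to 377, 3115 and 15616 CPM in WT replicates 1 to 3 and to 8741, 8495 and 12070 in *Aromhum* replicates 1 to 3, with *Pdgfra* at 0 by the rule, and *Dcn*, a collagen-binding proteoglycan, had a UMI in 73 cells. Without the mesothelial-marker cells they summed to 377, 217 and 363 and to 770, 2380 and 496. The 10 macrophage and dendritic genes summed to 25.1, 17 and 35.5 in WT mice and to 370, 79.3 and 2025 in *Aromhum* mice, with *C1qb*, *C1qc*, *Csf1r* and *Flt3* at 0, and without the mesothelial-marker cells to 25.1, 21.7 and 33.0 and to 143, 89.1 and 3626. Every *Aromhum* mouse was above the WT mice. Among all lists summed over the gate, only the sex steroid and glucocorticoid receptor and target list was also apart, in the other direction. It stood at 967, 783 and 710 in WT mice and 497, 640 and 406 in *Aromhum* mice, and stayed apart without the mesothelial-marker cells. The list sums carry no test. *Cd74*, which guides MHC class II molecules, was seen in 22 of 116 T cells of *Aromhum* mice and 4 of 57 of WT mice. These *Cd74* counts are pooled over mice and include the deeper mesothelial-marker cells. They are a description with no test, since cells are not replicates. The 12 immediate early genes, which respond to dissociation, summed to 4155, 11048 and 16752 in WT mice and to 14390, 4745 and 15916 in *Aromhum* mice, and to between 2939 and 4478 in every mouse without the 23 cells. B cell genes summed to at most 12.6 in any mouse, mast cell and neutrophil genes to at most 42.6, endothelial genes to at most 508 and muscle, smooth muscle and glial genes to between 74.8 and 1970 over all 173 cells. Their part in the genotype differences was not tested beyond the removal of the 23 cells.

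**Figure D5:**
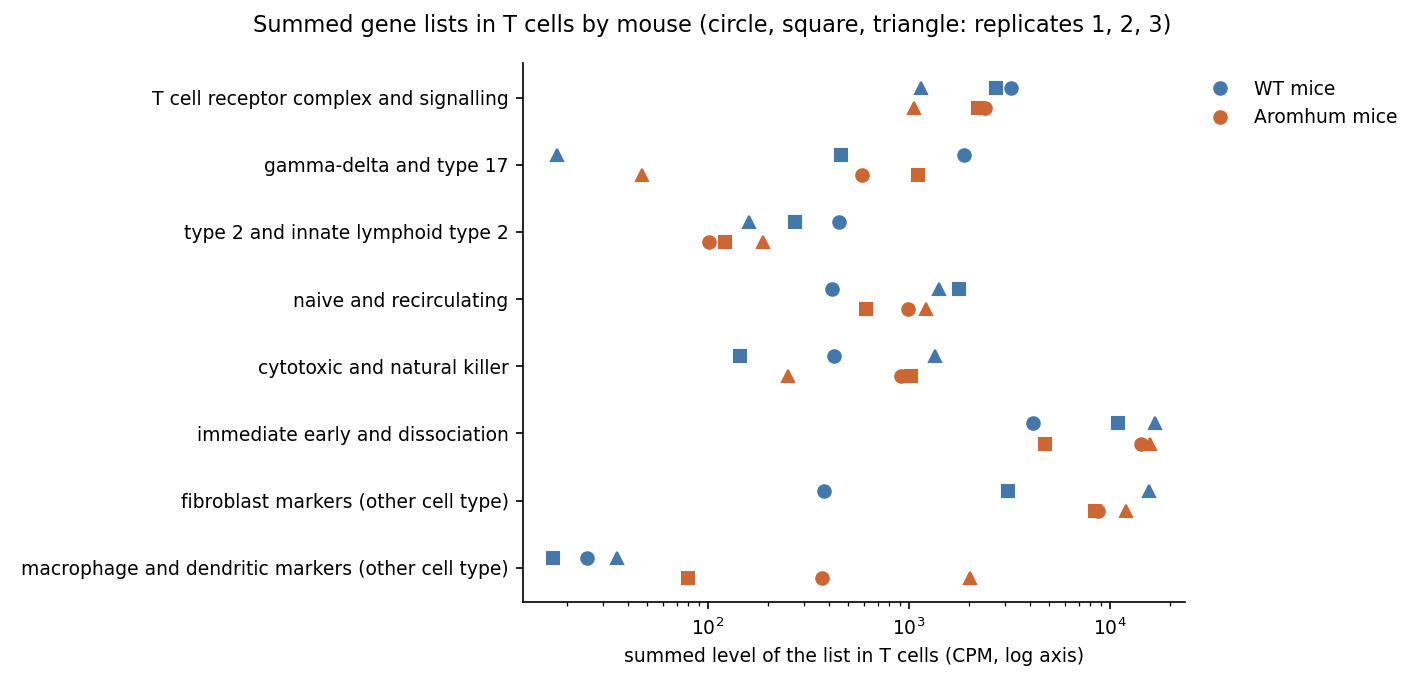
Summed level of 8 gene lists in the T cells of each mouse, in CPM on a log axis, with 1 point per mouse and replicates shown by shape. The lists of T cell kinds overlap between genotypes, the gamma-delta list is low in the third mouse of each genotype, where *Trdc* is listed at 0, and the macrophage and dendritic list is higher in the *Aromhum* mice.

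Whether a genotype difference in T cells was unlike that in other cells was tested by the interaction of genotype and cell type, with the mouse as a block. Against C1q macrophages, 0 of 4363 genes (0%) differed by edgeR, with 240 at an unadjusted p under 0.05. Against *Pecam1* endothelial cells, 47 of 11911 genes (0.395%) did. Only 1722 of those 11911 genes also passed the filter on low counts in T cells alone, 30 of the 47 among them, and the rest were tested through the far deeper endothelial sums. The count was 44 to 148 with 1 mouse left out, highest without WT replicate 2, and 58 without the mesothelial-marker cells. *Emb*, embigin, a partner of monocarboxylate transporters, was seen in 147 T cells, at 2674, 1004 and 1047 CPM in WT mice and 823, 1232 and 821 in *Aromhum* mice, and in endothelial cells at 4.21, 1.83 and 1.76 and at 17, 11.2 and 5.32. The groups overlapped in T cells and were apart in endothelial cells, and the difference of the 2 log2 fold changes was -2.54 (SE 0.40, edgeR adjusted p = 2.10e-05). *Tnfsf8*, the ligand of CD30, had a difference of -6.34 (SE 0.73, edgeR adjusted p = 5.59e-10) from 11 T cells. Its level was 201, 162 and 88.7 CPM in WT T cells and 13.2, 74.1 and 0 in *Aromhum* T cells, and in endothelial cells it was 9.55, 0.779 and 0.433 against 69.2, 27.6 and 11.6. Without the mesothelial-marker cells the T cell levels of *Tnfsf8* were 201, 206 and 0 against 26.9, 113 and 0, and the groups overlapped. Of the gate's UMIs of *Hspb1* and *Cav1*, genes of a heat shock chaperone and of caveolae, 92.2% and 93.4% were in the mesothelial-marker cells.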

How the data were processed

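Single-cell mRNA of the LAM of 3 WT and 3 *Aromhum* mice was captured on a 10x Genomics droplet platform. Per the labels and the study's methods, the authors aligned the reads to mm10 with the human *CYP19A1* sequence added, using Cell Ranger 3.0.2, and deposited 1 table of UMI counts, not normalized, for 16494 genes and 63647 barcodes. All values are whole numbers. Many genes are listed at 0 for a whole library, and a filter that does so is not given in the sources used here. The replicates are separate mice. Library of origin was read from the barcode names.

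Cells were kept and T cells chosen as described in the report. The members and gene lists were chosen with earlier results of these data known. The study's own limits would keep 42 of the 173 T cells, and 0 in WT replicate 2, and were not used. UMIs were summed over the T cells of each mouse (10 or more cells each in the main fit) and tested with edgeR 4.0.16 (quasi-likelihood test, TMM factors, filterByExpr, Benjamini-Hochberg) in R 4.3.3, with DESeq2 1.42.0 as an alternative. Some alternative fits had fewer cells in a mouse. WT replicate 3 had 9 without the 23 mesothelial-marker cells. WT replicate 2 had 2 with at most 5% mitochondrial UMIs, and *Aromhum* replicate 3 had 6 with all 3 rule genes. The script was tested on simulated data. CPM are UMIs of a gene per 1000000 UMIs of the same cells, without TMM factors. Shares were compared by exact permutation tests over mice. C1q macrophages had at least 2 of *C1qa*, *C1qb* and *C1qc*, and *Pecam1* endothelial cells had *Pecam1* and *Cdh5*, with T cell markers at 0. Doublets were left in: Scrublet (scanpy 1.11.5) marked 0% to 0.0131% of WT and 1.76% to 2.70% of *Aromhum* cells, so few in WT mice that its marks were not relied on, and it marked no T cell.

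Named genes were up to 10 called genes per direction, filled to 5 by lowest p, up to 5 called interaction genes, and genes of the marker and gene lists. The same rule was applied to the fit without mesothelial-marker cells. The plan named a Cd8 share and *Gzma*, *Gzmb* and *Prf1* among cytotoxic genes, which are not analysed here. Alternatives tried were other limits on cells, marker number, depth (thinning to 1000 UMIs), normalization, filter, tool, replicate block and leaving out each mouse.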

Additional observations from a re-analysis of the deposited data

Results flagged for a closer look

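The genotype effect differed between T cells and *Pecam1* endothelial cells for 47 genes of 11911 tested (0.395%) by the interaction test (edgeR, adjusted p under 0.05), 30 of which passed the filter on low counts in T cells alone. The difference of log2 fold changes, T cells minus endothelial cells, was -6.34 for *Tnfsf8*, seen in 11 T cells (-8.67 to -5.32 with 1 mouse left out). It was -2.54 for *Emb*, and 4.15% of the *Emb* UMIs of the gate were in the mesothelial-marker cells. It was 3.72 for *Hspb1* (edgeR adjusted p = 3.93e-08, and 6.44 without WT replicate 2), 2.96 for *Cav1* (adjusted p = 2.60e-05) and 3.15 for *Hspa1a* (adjusted p = 8.95e-05), and 92.2%, 93.4% and 84.7% of the gate's UMIs of these 3 genes were in the mesothelial-marker cells. Without those cells the *Cav1* difference was no longer past the threshold (3.52, edgeR adjusted p = 0.165), and the other 4 genes were, although *Hspb1* then rested on 37 UMIs in 8 T cells and *Hspa1a* on 23 UMIs in 7, of which 16 were in 2 cells of *Aromhum* replicate 3.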

How the results depend on the processing

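The share of T cells among kept cells was higher in *Aromhum* mice under every alternative run except with all 3 rule genes (-0.00031 percentage points). The difference was 0.0592 with at most 5% mitochondrial UMIs, 0.163 with at most 2500 genes, 0.304 without the limit on *Csf1r*, *Pdgfra* and *Pecam1*, 1.16 with at least 1 rule gene, and between 0.0460 and 0.177 with 1 mouse left out. No alternative for this share was limited to T cells with a *Ptprc* UMI, which were a smaller part of the gate in *Aromhum* mice. The share within leukocytes was lower under each alternative run (-4.11 to -2.44 with 1 mouse left out). The gamma-delta difference was 5.72 with all 3 rule genes and between -18.2 and 18.2 with 1 mouse left out. Genes higher in *Aromhum* T cells numbered 126 with no filter on low counts (28 lower, and the median log2 fold change was 0.13), 6 by DESeq2, and 0 each with at most 5% mitochondrial UMIs, with all 3 rule genes and without the 23 mesothelial-marker cells, with or without the block. The 5% limit and the 3 rule genes leave fewer cells and genes to test. With 1 mouse left out there were 0 to 2, and the 2 found without WT replicate 2 were not *Serpina3n* and *Slc39a8*, so no fit that left out a mouse called either. Genes lower stayed at 0 in those fits. Genes whose effect differed from macrophages numbered 58 with no filter and 0 to 8 with 1 mouse left out (8 without WT replicate 1). Those that differed from endothelial cells numbered 81 with no filter and 44 to 148 with 1 mouse left out, 148 without WT replicate 2, 103 without WT replicate 3 and 91 without *Aromhum* replicate 2. The causes were not tested.

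The study processed 1 WT and 1 *Aromhum* littermate on each date, but the labels do not say that a replicate number marks a date. Deviations of same-numbered mice correlated at -0.07, -0.24 and 0.12 over 1722 genes, so these values do not show that the numbers mark the pairs. With the replicate block edgeR called 0 genes higher, and the exact test of the T cell share gave p = 0.25, the smallest that 3 pairs allow. The alternatives for a Cd8 share were not run. With 11 to 58 T cells per mouse, counting error limits every share of a subset.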
